A study of Mus musculus with 10 samples.

Results

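SNARE proteins and the factors that prime vesicles for fusion were examined as 1 group of genes in the hippocampus of Tg(Dyrk1a) mice. The group was a list of 46 gene symbols, read from the array through the platform's gene symbols, with the transcript cluster of highest mean taken where a gene had several. Of the 46 genes, 45 were measured, out of 19938 genes with a symbol on the array. Vamp2, the main synaptic vesicle SNARE, sat only on a transcript cluster that names several genes and has no value here. The 45 genes comprised 10 synaptic genes, 8 other plasma membrane SNAREs, 13 endosomal SNAREs, 10 Golgi SNAREs and 4 genes of SNARE disassembly.

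The mice were males aged 16 weeks, 5 Tg(Dyrk1a) and 5 wild-type littermates, untreated as far as the labels say. Tg(Dyrk1a) mice, 1 transgenic line, hold a bacterial artificial chromosome with a further Dyrk1a, which encodes a kinase, and the labels give C57BL/6N as the background of both groups, where the study's methods name C57BL/6J for the line. Each mouse gave 1 Affymetrix Mouse Gene 1.0 ST array of RNA from both hippocampi, which the labels call a biological replicate. The comparison asked whether the messenger RNAs of the fusion machinery differed with Dyrk1a dosage, and whether synaptic, endosomal and Golgi genes did so alike.

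SNAREs are short membrane-anchored proteins whose helices zip together, 1 set from a vesicle and the rest from its target membrane, and so pull the membranes into fusion. At the synapse Snap25, Stx1a and Vamp2 form this bundle, Unc13 proteins open syntaxin and prime the vesicle, complexins clamp and trigger the bundle, and Doc2 proteins bind calcium. Other SNARE sets serve traffic between endosomes, lysosomes and the Golgi, and Nsf with its adaptors Napa, Napb and Napg pulls used bundles apart. Because the RNA came from whole tissue, fewer cells of a type and less RNA per cell cannot be told apart.

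Values are log2 of probe intensity after robust multi-array average (RMA) processing, so a difference of 1 is a doubling. They can be compared between mice for a gene but not between genes. Fold changes are given as the log2 difference, Tg(Dyrk1a) minus wild type, with the standard error (SE) and the adjusted p of limma, a linear model that shares its estimate of spread across genes. The adjustment covered all 23410 annotated transcript clusters.

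The targeted gene Dyrk1a read 11.65, 11.62, 11.67, 11.65 and 11.68 in Tg(Dyrk1a) mice 1 to 5 and 11.28, 11.15, 11.14, 11.19 and 11.15 in wild type, or 11.65 ± 0.02 against 11.18 ± 0.06 (mean ± SD, n = 5 each). This is a 1.38-fold difference with an adjusted p of 0.000138 (limma), and the genotypes did not overlap. The arrays correlated with each other at 0.994 to 0.998 over all rows. All 12 neuron markers and 13 of 14 markers of the hippocampal fields lay above the array median on every array. So did 13429 of all 23410 annotated transcript clusters. Among markers of other tissues, 13 of 16 of meninges and fibroblasts, 9 of 11 of thalamus and habenula and 4 of 13 of choroid plexus did. Tg(Dyrk1a) mice 2 and 4 and wild-type mouse 5 stood apart by high signal of choroid plexus genes, the tissue that makes cerebrospinal fluid. Their scores (the mean of centred log2 values over 13 markers) were 1.17, 0.873 and 1.10, against -0.688 to 0.0274 on the other 7 arrays.

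None of the 45 genes passed the test. Their adjusted p ran from 0.947 to 0.999 (limma), where 0.00854% of all annotated transcript clusters passed. At an unadjusted limma p under 0.05, 2 of the 45 were higher in Tg(Dyrk1a), Vamp4 and Vti1a, where 2.99% of all transcript clusters were, and 0 of 45 were lower, where 1.94% of all were. That count was 0 without Tg(Dyrk1a) mouse 3 or mouse 5, and 1 without Tg(Dyrk1a) mouse 2 or wild-type mouse 3. The exact permutation test over mice put 3 of 45 genes under an unadjusted p of 0.05, all higher in Tg(Dyrk1a): Vamp4, Vti1a and Stx8. Over all transcript clusters, 3.06% were under that p and higher in Tg(Dyrk1a). In no gene of the list were the genotypes without overlap, against 0.807% of all transcript clusters. FCROS, the ranking of pairwise fold changes that the study used, placed 1 of 45 genes on its higher side, Vamp4, and 0 of 45 on its lower side. It placed 2.72% of all transcript clusters on the higher side and 2.11% on the lower.

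The differences were small beside the spread of the mice. The log2 differences ran from -0.12 (Doc2a) to 0.13 (Vamp4), and their median size was 0.0419, against a median SD within genotype of 0.0682. The median SE of the differences was 0.0427. Over all transcript clusters the median size was 0.0320 and the median SD 0.0701. For 43 of 45 genes the 95% interval of the difference lay wholly within 1.2-fold in either direction, as it did for 95.7% of all transcript clusters. The exceptions were Doc2a, whose interval reached -0.28, and Bet1, whose interval reached 0.29. For all 45 the interval ended below 1.5-fold, against 99.8% of all transcript clusters.

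By direction alone, 37 of 45 genes (82.2%) had a higher mean in Tg(Dyrk1a), with a median log2 difference of 0.0329. Over all transcript clusters 50.9% were higher, with a median of 0.00104. Without the dimmest 30% of transcript clusters, 56.3% of those left were higher, against 37 of the 44 genes of the list that were left. Centring each array on its median raised the share over all transcript clusters to 63.6% and the count in the list to 41 of 45. The genes share mice and arrays, so these counts describe the list and carry no test. The plot of all fold changes gives them class by class.

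**Figure D1:**
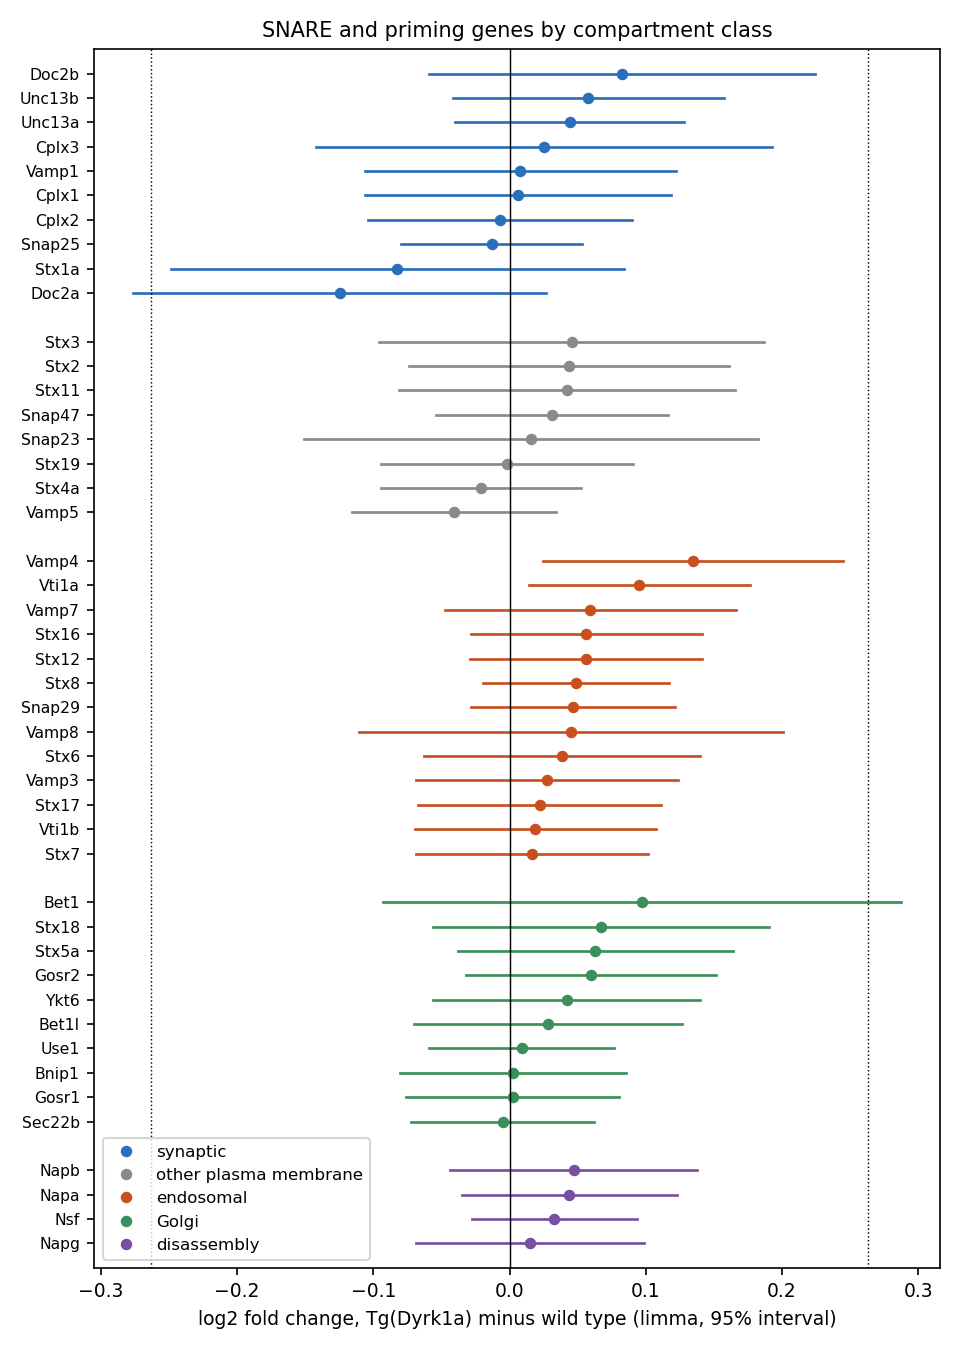
Log2 fold change of the 45 measured SNARE and priming genes, Tg(Dyrk1a) minus wild type, with limma 95% intervals, grouped and coloured by compartment class. Dotted lines mark 1.2-fold in either direction. All 13 endosomal genes lie to the right of 0, the 10 synaptic genes lie on both sides, and only the intervals of Vamp4 and Vti1a leave out 0.

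The SNARE bundle with the largest median difference was that of the trans-Golgi network and early endosome, Stx6, Stx16, Vti1a and Vamp4, which carries vesicles returning from endosomes to the Golgi. The bases just before their start sites are printed for this bundle and, for comparison, for Stx1a of the synaptic bundle. They are the 250 bases upstream of the start site that RefSeq on GRCm38.p6 lists first, 5′ to 3′, all on the plus strand. The start listed first need not be the most upstream. The windows lie at chr1:155158453-155158702 (Stx6), chr2:174076801-174077050 (Stx16), chr19:55315807-55316056 (Vti1a), chr1:162570265-162570514 (Vamp4) and chr5:135023232-135023481 (Stx1a). The Stx16 window lies inside the span of the gene. The window of its other listed start, not printed, is further upstream at chr2:174076052-174076301. The windows of Stx6 and Vti1a end inside the spans of their genes, which start at chr1:155158628 and chr19:55316030. Capitals mark matches on either strand to the GC box GGGCGG, the E-box CACGTG, the cyclic AMP response element TGACGTCA and the CCAAT box.
Stx6: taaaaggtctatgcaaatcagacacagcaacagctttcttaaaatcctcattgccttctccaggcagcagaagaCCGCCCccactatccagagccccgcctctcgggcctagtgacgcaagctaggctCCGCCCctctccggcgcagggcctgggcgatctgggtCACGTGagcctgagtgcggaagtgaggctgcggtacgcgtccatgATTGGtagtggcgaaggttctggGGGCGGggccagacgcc
Stx16: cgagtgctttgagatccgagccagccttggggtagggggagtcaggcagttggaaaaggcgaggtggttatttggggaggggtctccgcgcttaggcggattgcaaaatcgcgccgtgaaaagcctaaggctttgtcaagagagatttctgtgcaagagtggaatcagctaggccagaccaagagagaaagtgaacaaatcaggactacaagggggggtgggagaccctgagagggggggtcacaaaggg
Vti1a: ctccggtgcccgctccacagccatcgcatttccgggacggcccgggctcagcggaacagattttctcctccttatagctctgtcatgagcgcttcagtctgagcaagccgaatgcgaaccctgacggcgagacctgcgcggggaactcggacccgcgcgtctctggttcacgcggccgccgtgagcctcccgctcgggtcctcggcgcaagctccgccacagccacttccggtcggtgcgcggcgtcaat
Vamp4: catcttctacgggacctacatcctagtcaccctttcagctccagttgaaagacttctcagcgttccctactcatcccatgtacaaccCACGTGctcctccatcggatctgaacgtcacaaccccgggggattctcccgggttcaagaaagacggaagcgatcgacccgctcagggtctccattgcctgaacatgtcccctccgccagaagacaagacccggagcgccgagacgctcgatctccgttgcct
Stx1a: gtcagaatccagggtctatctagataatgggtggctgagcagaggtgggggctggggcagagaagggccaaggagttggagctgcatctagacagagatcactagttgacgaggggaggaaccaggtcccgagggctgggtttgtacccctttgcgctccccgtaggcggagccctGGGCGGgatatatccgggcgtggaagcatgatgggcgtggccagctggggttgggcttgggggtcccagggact

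Among these windows, Stx6 held GC boxes, an E-box and a CCAAT box, Vamp4 an E-box and Stx1a a GC box while the printed windows of Stx16 and Vti1a held none of the 4 motifs. Stx16 and Vamp4 have a second listed start, whose window held a GC box in both genes, so that 3 of the 4 genes of the bundle had a GC box at some listed start. Over the 39 measured genes with a listed promoter, 25 (64.1%) held a GC box, 7 (17.9%) an E-box, 16 (41%) a CCAAT box and 1 (2.6%) a cyclic AMP response element, counting every listed start of a gene. Of 17491 protein-coding genes in the same table, 45.8%, 7.6%, 39.5% and 2.2% did. The median G and C content was 58.4% in the list and 55.6% in protein-coding genes. The E-box was found in 2 of 7 synaptic, 2 of 11 endosomal, 1 of 10 Golgi, 0 of 8 other plasma membrane and 2 of 3 disassembly genes. The GC box was found in 5, 6, 8, 5 and 1 of them.

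Vamp4, the vesicle SNARE of this bundle (gene span chr1:162570515-162599082), read 9.78, 9.81, 9.89, 9.75 and 9.92 in Tg(Dyrk1a) mice 1 to 5. The wild-type mice read 9.53, 9.78, 9.69, 9.74 and 9.75. All 5 Tg(Dyrk1a) values were above the wild-type mean, but wild-type mouse 2 reached the lower Tg(Dyrk1a) mice, and wild-type mouse 1 was the lowest of all. The log2 difference was 0.13 ± 0.051 (SE), a 1.10-fold difference, with an adjusted p of 0.947 (limma) and an exact permutation p of 0.0159. Without wild-type mouse 1 it was 0.0927.

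Vti1a, a SNARE that serves the same bundle from the target side (chr19:55316030-55627461), read 8.84, 8.94, 8.93, 8.85 and 8.96 in Tg(Dyrk1a). The wild-type mice read 8.83, 8.81, 8.72, 8.82 and 8.87. Again all 5 transgenic values exceeded the wild-type mean, and wild-type mouse 5 lay within the transgenic range. On the log2 scale the difference was 0.095 ± 0.037 (SE), with an adjusted p of 0.947 (limma) and an exact permutation p of 0.0317. Without wild-type mouse 3, the lowest of all, the difference was 0.073.

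Stx16, the trans-Golgi syntaxin (chr2:174076260-174099771), read 8.16, 8.11, 8.20, 8.12 and 8.02 in Tg(Dyrk1a) and 8.12, 8.06, 7.99, 8.07 and 8.10 in wild type. The groups overlapped broadly, with the lowest transgenic value below 4 of the wild-type ones. Its log2 difference was 0.056 ± 0.039 (SE, adjusted p = 0.948, limma; exact permutation p = 0.159), and 0.037 without mouse 3 of either genotype. Stx6, the remaining member, had a log2 difference of 0.039 ± 0.047, with 2 of 5 transgenic mice above the wild-type mean. The median of the 4 log2 differences was 0.0758, against 0.0329 over the whole list, and the bundle was singled out after its values were seen.

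**Figure D2:**
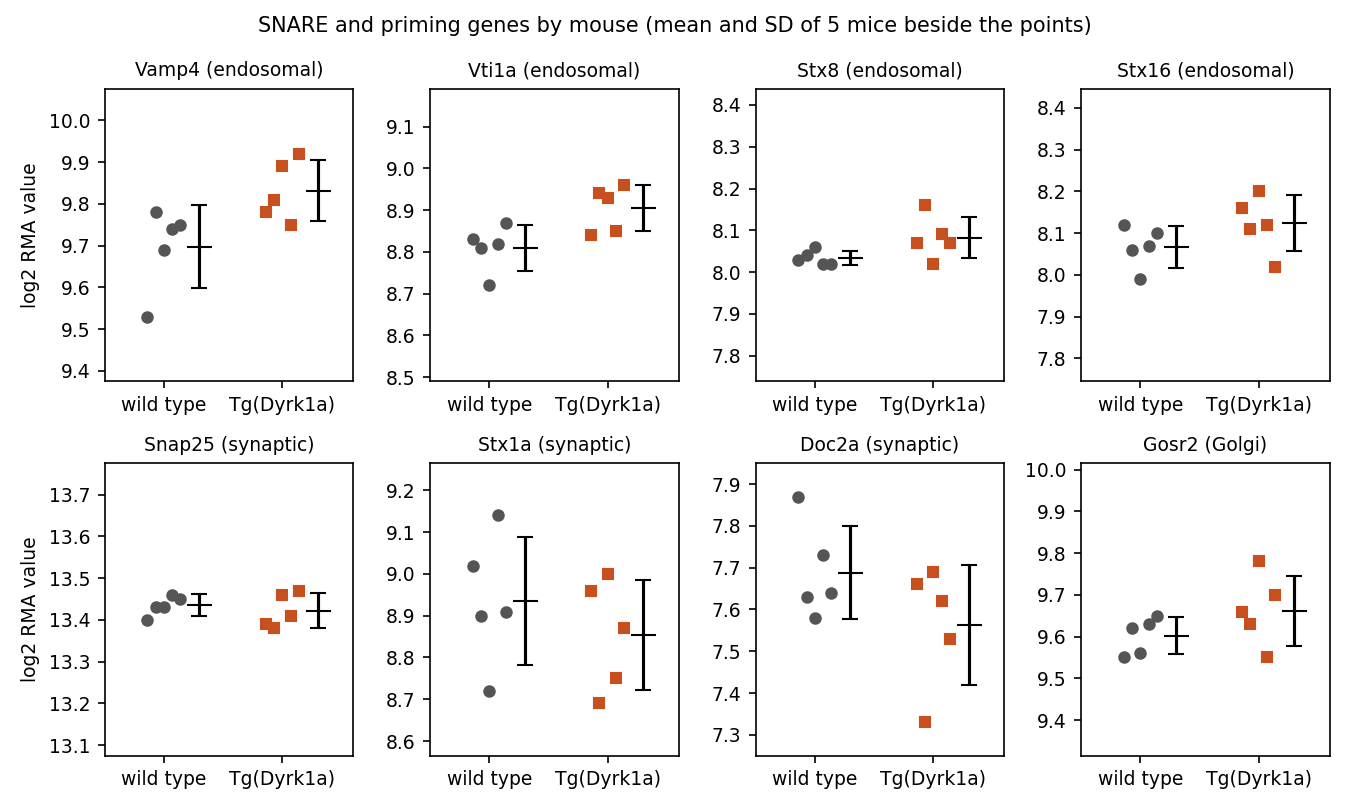
Log2 RMA value of 8 SNARE and priming genes in each mouse, wild type as grey circles and Tg(Dyrk1a) as orange squares, with mean and SD of 5 mice beside the points. Every panel spans 0.7 log2 units, and the genotypes overlap in all 8, including Vamp4 and Vti1a.

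The late endosome and lysosome bundle, Stx7, Stx8, Vti1b and either Vamp7 or Vamp8, was higher in all 5 genes, with a median log2 difference of 0.0453 and no call. Stx8, a target-side SNARE of this bundle (chr11:67966411-68207148), read 8.07, 8.16, 8.02, 8.09 and 8.07 in Tg(Dyrk1a) and 8.03, 8.04, 8.06, 8.02 and 8.02 in wild type. The wild-type values were close together, with an SD of 0.017 against 0.050, and Tg(Dyrk1a) mouse 3 lay among them. The log2 difference was 0.049 ± 0.031 (SE, adjusted p = 0.947, limma; exact permutation p = 0.0476), and 0.029 without Tg(Dyrk1a) mouse 2. Vamp7 differed by 0.059, Vamp8 by 0.045, Vti1b by 0.019 and Stx7 by 0.017, none past the test.

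The remaining endosomal genes were Stx12 and Vamp3 of the early and recycling endosome, at 0.056 and 0.027, and Snap29 and Stx17, which fuse autophagosomes with lysosomes, at 0.046 and 0.022. For Snap29 all 5 transgenic mice were above the wild-type mean, with values of 8.67 to 8.75 against 8.55 to 8.69. All 13 endosomal genes thus had a higher mean in Tg(Dyrk1a), from 0.017 to 0.13, with a median of 0.0465, and 0 of 13 passed the test. Without Tg(Dyrk1a) mouse 2, 12 of 13 were higher and the median was 0.0272. The class includes the 4 genes of the trans-Golgi network and early endosome bundle, with Vamp4 and Vti1a the largest differences of the class. The endosomal and Golgi medians, and their order, depend on counting that bundle as endosomal.

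The synaptic genes were divided in direction, 6 higher and 4 lower of 10, with a median log2 difference of 0.00708. Without Tg(Dyrk1a) mouse 3, 3 of 10 were higher and the median was -0.0133. Under median centring 8 of 10 were higher (median 0.0224), as on the 7 arrays low in choroid plexus genes (median 0.0195), and under quantile normalization 4 of 10 (median -0.0043). Snap25, the membrane-bound synaptic SNARE that gives the bundle 2 helices (chr2:136713439-136782428), read 13.39, 13.38, 13.46, 13.41 and 13.47 in Tg(Dyrk1a). The wild-type mice read 13.40, 13.43, 13.43, 13.46 and 13.45. The groups covered nearly the same range, and the log2 difference was -0.013 ± 0.031 (SE), with a 95% interval from -0.080 to 0.053 and an adjusted p of 0.980 (limma). Its sign turned under median centring, where it was 0.0021.

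Stx1a, the synaptic syntaxin (chr5:135023482-135051100), read 8.96, 8.69, 9.0, 8.75 and 8.87 in Tg(Dyrk1a) and 9.02, 8.90, 8.72, 9.14 and 8.91 in wild type. Both genotypes had a wide spread, SD 0.13 and 0.15, and overlapped. The fitted log2 difference was -0.082 ± 0.077 (SE, 95% interval -0.25 to 0.084; adjusted p = 0.957, limma). It was -0.14 without wild-type mouse 3, -0.042 without Tg(Dyrk1a) mouse 2, -0.032 without wild-type mouse 4, and -0.00092 on the 7 arrays low in choroid plexus genes. Vamp1, the vesicle SNARE related to Vamp2, differed by 0.0081, and the complexins Cplx1, Cplx2 and Cplx3 by 0.0061, -0.0069 and 0.025.

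The calcium sensors Doc2a and Doc2b pointed in opposite directions. Doc2a, described in excitatory neurons (chr7:126846983-126852705), read 7.66, 7.33, 7.69, 7.62 and 7.53 in Tg(Dyrk1a) and 7.87, 7.63, 7.58, 7.73 and 7.64 in wild type. Tg(Dyrk1a) mouse 2, an array high in choroid plexus genes, was the lowest, and 1 of 5 transgenic values was above the wild-type mean. The log2 difference was -0.12 ± 0.070 (SE, adjusted p = 0.947, limma; exact permutation p = 0.183), -0.066 without that mouse and -0.080 without wild-type mouse 1.

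Doc2b (chr11:75768270-75796060) read 10.09, 10.24, 9.86, 9.94 and 9.97 in Tg(Dyrk1a) and 10.01, 9.95, 10.01, 9.90 and 9.83 in wild type. Here the same mouse 2 was the highest. Its log2 difference was 0.083 ± 0.065 (SE, adjusted p = 0.952, limma; exact permutation p = 0.357) with all mice and 0.027 without mouse 2, and 0.054 without wild-type mouse 5.

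The priming factors Unc13a and Unc13b, which open syntaxin, had higher means in Tg(Dyrk1a). Unc13b (chr4:43046193-43264873) read 7.87, 7.98, 7.95, 8.05 and 7.99 against 7.94, 7.87, 7.78, 7.99 and 7.97 in wild type, a log2 difference of 0.058 ± 0.046 (SE, adjusted p = 0.952, limma; exact permutation p = 0.238). Unc13a (chr8:71624125-71671774) read 10.77, 10.80, 10.78, 10.95 and 10.83 against 10.84, 10.78, 10.73, 10.77 and 10.78, a log2 difference of 0.044 ± 0.039 (SE, adjusted p = 0.954, limma; exact permutation p = 0.294). The groups overlapped for both genes. Without wild-type mouse 3 Unc13b was at 0.025, and without Tg(Dyrk1a) mouse 4 the values were 0.039 for Unc13b and 0.014 for Unc13a. Unc13a was the only gene of the list with further transcript clusters of its own symbol, and these differed by -0.084 and 0.058, so its direction depended on which was read.

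The Golgi SNAREs were higher in 9 of 10 genes, with a median log2 difference of 0.0352 and no call. The median was 0.0196 without wild-type mouse 1 and 0.0231 without Tg(Dyrk1a) mouse 2. The genes of traffic from the endoplasmic reticulum to and within the Golgi were led by Bet1, a vesicle SNARE (chr6:4076899-4086998), which read 7.54, 8.13, 7.82, 7.76 and 7.89 in Tg(Dyrk1a) and 7.59, 7.72, 7.73, 7.78 and 7.84 in wild type. Tg(Dyrk1a) mice 1 and 2 were the lowest and the highest of all 10, and the log2 difference was 0.097 ± 0.088 (SE, adjusted p = 0.955, limma; exact permutation p = 0.397). Without mouse 1 it was 0.17, without mouse 2 0.021, and without wild-type mouse 1 0.062. Stx5a, the Golgi syntaxin (chr19:8741424-8755642), read 9.43, 9.54, 9.38, 9.58 and 9.34 against 9.44, 9.40, 9.39, 9.33 and 9.40.

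For Stx5a the groups overlapped, with wild-type mouse 4 the lowest of all, and the log2 difference was 0.063 ± 0.046 (SE, adjusted p = 0.952, limma; exact permutation p = 0.286). Its 2 highest values were those of Tg(Dyrk1a) mice 2 and 4, without mouse 4 the difference was 0.031, and on the 7 arrays low in choroid plexus genes it was -0.0053. Gosr2, a Golgi SNARE of the same bundle (chr11:103676849-103697723), read 9.66, 9.63, 9.78, 9.55 and 9.7 against 9.55, 9.62, 9.56, 9.63 and 9.65, a log2 difference of 0.060 ± 0.042 (SE, adjusted p = 0.949, limma; exact permutation p = 0.183). Gosr2 was at 0.031 without Tg(Dyrk1a) mouse 3 and at 0.12 on the 7 arrays low in choroid plexus genes. Stx18, the syntaxin of return traffic to the endoplasmic reticulum (chr5:38036729-38137770), read 8.17, 8.26, 8.01, 8.08 and 8.08 against 7.89, 8.16, 8.02, 8.10 and 8.10. Wild-type mouse 1 was low and the rest overlapped, with a log2 difference of 0.067 ± 0.057 (SE, adjusted p = 0.952, limma; exact permutation p = 0.381). Without that mouse it was 0.025, and without Tg(Dyrk1a) mouse 2 0.032.

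The other Golgi genes were Ykt6 at 0.042, Bet1l at 0.028, Use1 at 0.0091, Bnip1 at 0.0027, Gosr1 at 0.0023 and Sec22b at -0.0051. The higher values in the Golgi class thus came mostly from 6 genes, while Use1, Bnip1, Gosr1 and Sec22b lay close to 0.

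The other plasma membrane SNAREs were split, 5 higher and 3 lower of 8, with a median log2 difference of 0.0234. Snap23, the relative of Snap25 found in most tissues (chr2:120567655-120601255), read 9.29, 9.58, 9.47, 9.73 and 9.36 in Tg(Dyrk1a) and 9.37, 9.43, 9.42, 9.52 and 9.62 in wild type. Its highest values were those of Tg(Dyrk1a) mouse 4, wild-type mouse 5 and Tg(Dyrk1a) mouse 2, the 3 arrays high in choroid plexus genes. The log2 difference was 0.016 ± 0.077 (SE, adjusted p = 0.989, limma) and -0.062 without those arrays.

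Stx2, a syntaxin of epithelial and other cells (chr5:128984557-129008600), read 7.40, 7.40, 7.49, 7.65 and 7.32 against 7.47, 7.37, 7.43, 7.41 and 7.35. Tg(Dyrk1a) mouse 4 was well above all others. Tg(Dyrk1a) minus wild type was 0.044 ± 0.054 (SE, adjusted p = 0.969, limma; exact permutation p = 0.563), -0.0049 without it and 0.077 without Tg(Dyrk1a) mouse 5. Vamp5, best known from muscle (chr6:72368049-72380468), read 7.65, 7.58, 7.60, 7.60 and 7.61 against 7.66, 7.58, 7.60, 7.69 and 7.72. It was the only gene of the list with no transgenic mouse above the wild-type mean, and its log2 difference was -0.041 ± 0.034 (SE, adjusted p = 0.952, limma; exact permutation p = 0.214), and -0.022 without wild-type mouse 5. Stx3, Stx11 and Snap47 lay at 0.046, 0.042 and 0.031, and Stx19 and Stx4a at -0.0016 and -0.021.

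The 4 genes of SNARE disassembly were all higher, with a median log2 difference of 0.0384 and no call. Nsf, the ATPase that unwinds spent bundles (chr11:103821782-103954056), read 12.32, 12.30, 12.33, 12.27 and 12.32 in Tg(Dyrk1a) and 12.27, 12.31, 12.24, 12.29 and 12.27 in wild type. Its SD pooled over both genotypes was the smallest of the list, and 4 of 5 transgenic values were above the wild-type mean, with overlap. The log2 difference was 0.033 ± 0.028 (SE, 95% interval -0.027 to 0.093; adjusted p = 0.952, limma; exact permutation p = 0.0794). Napa, its main adaptor (chr7:16098202-16117982), read 11.15, 11.14, 11.05, 11.00 and 11.05 against 11.02, 11.07, 11.06, 11.04 and 10.97, a log2 difference of 0.044 ± 0.036 (SE, adjusted p = 0.952, limma; exact permutation p = 0.214), 0.026 without Tg(Dyrk1a) mouse 1 and 0.028 without wild-type mouse 5. Napb, the adaptor of neurons, lay at 0.047 and Napg at 0.015.

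**Figure D3:**
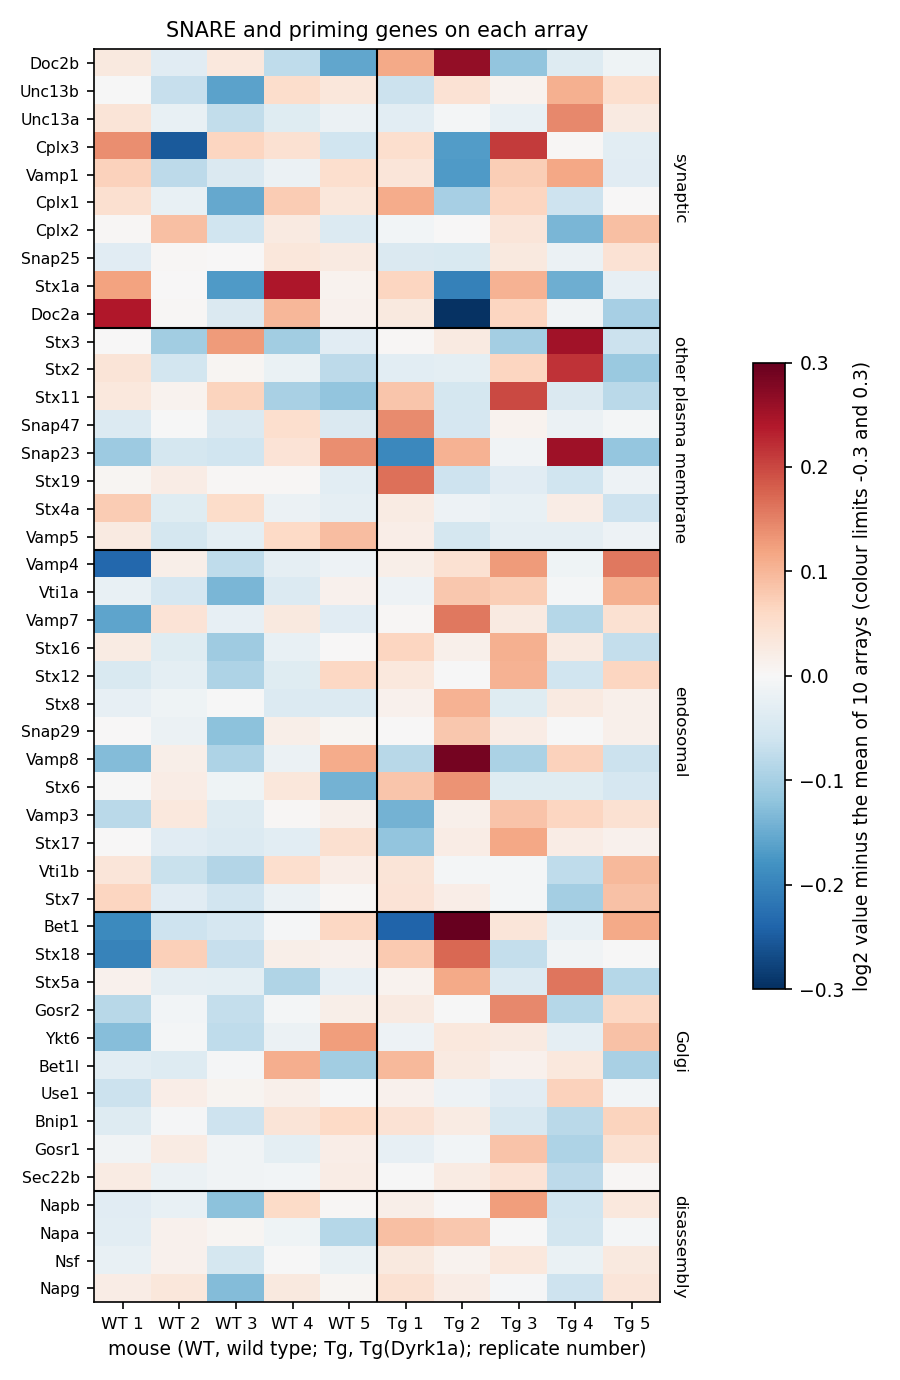
Log2 value of each of the 45 genes on each array minus the gene's mean over the 10 arrays, genes in rows by class and mice in columns; colours end at -0.3 and 0.3. Wild-type mouse 3 holds the lowest value for 11 genes and Tg(Dyrk1a) mouse 3 the highest for 11.

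Across mice the classes were compared by a score, the mean over a class of each gene's log2 value minus its mean over the 10 arrays. The endosomal score was -0.005, 0.074, 0.037, -0.013 and 0.035 in Tg(Dyrk1a) mice 1 to 5 and -0.044, -0.012, -0.069, -0.008 and 0.004 in wild type. All 5 transgenic scores were above the wild-type mean, but those of mice 1 and 4 lay among the wild-type ones. The synaptic score was 0.026, -0.068, 0.045, -0.004 and 0.001 against 0.066, -0.038, -0.061, 0.045 and -0.011. The mice of both genotypes were spread over the same range.

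The Golgi score was -0.001, 0.072, 0.015, -0.013 and 0.019 against -0.071, -0.005, -0.038, 0.003 and 0.019, with overlap. The contrast of synaptic minus endosomal score was 0.031, -0.142, 0.008, 0.009 and -0.035 in Tg(Dyrk1a) and 0.109, -0.026, 0.008, 0.053 and -0.014 in wild type. Tg(Dyrk1a) mouse 2 was far below the rest, and the other 4 transgenic mice lay within or just under the wild-type range. The median log2 difference of synaptic genes minus that of endosomal genes was -0.0394, and minus that of Golgi genes -0.0281. Without Tg(Dyrk1a) mouse 2 these contrasts were 0.0022 and 0.0063, and without wild-type mouse 1 the contrast with Golgi genes was 0.0032.

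**Figure D4:**
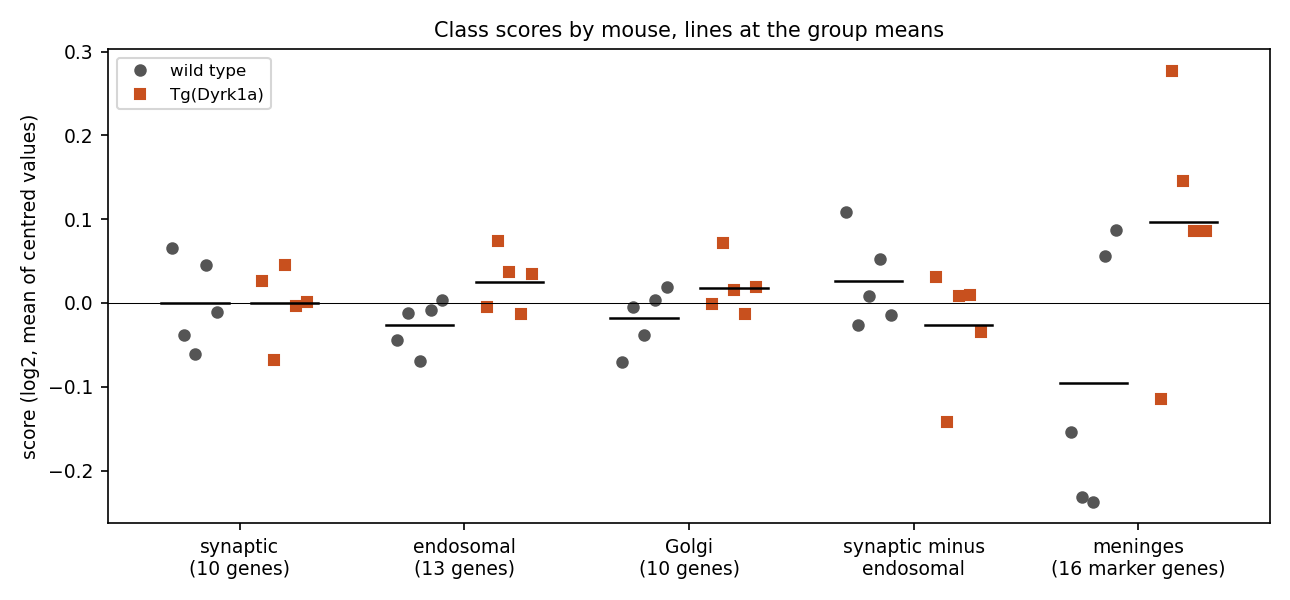
Score of the synaptic, endosomal and Golgi genes, of the synaptic minus endosomal contrast and of 16 marker genes of meninges in each mouse (log2, mean of centred values), wild type as grey circles and Tg(Dyrk1a) as orange squares, lines at the group means. The genotypes overlap in every column, and the meninges markers spread more widely than the SNARE classes.

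Markers of tissues and cell types were read on the same arrays, and none of the genes on these lists passed the test. Of all transcript clusters, 50.9% were higher by direction, and 2.99% were higher and 1.94% lower at an unadjusted limma p under 0.05. Of 16 markers of meninges and fibroblasts, 15 were higher in Tg(Dyrk1a), 4 of them at an unadjusted limma p under 0.05. Their scores were -0.114 to 0.277 in Tg(Dyrk1a) and -0.237 to 0.0866 in wild type. Of 10 endothelial and mural markers 8 were higher, 4 of them under that p, with scores of 0.0209 to 0.102 against -0.163 to 0.0218. All 11 markers of thalamus and habenula were lower, 1 of them under that p. Their scores were -0.145 to -0.0105 against -0.148 to 0.547, the latter in wild-type mouse 5. Neuron markers were higher in 7 of 12, 1 of them under that p, with scores of -0.0071 to 0.0335 against -0.0727 to 0.0216. Markers of the hippocampal fields were higher in 12 of 14, with a median log2 difference of 0.0654, 3 at an unadjusted limma p under 0.05, and scores of -0.0529 to 0.190 against -0.121 to 0.0355. The part of the hippocampal, neuron and vascular lists in the direction of the SNARE genes was not tested. When scores of thalamus, meninges and choroid plexus markers were added as covariates, an alternative chosen after the data were seen, 23 of 45 genes were higher, 6 of 13 endosomal and 5 of 10 Golgi, and the endosomal median was -0.0141. In that fit Dyrk1a itself, at 0.44, no longer passed (adjusted p = 0.306, limma). With the choroid plexus score alone the counts were 37, 13 and 9, and on the 7 arrays low in those genes they were 33, 11 and 7.

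**Figure D5:**
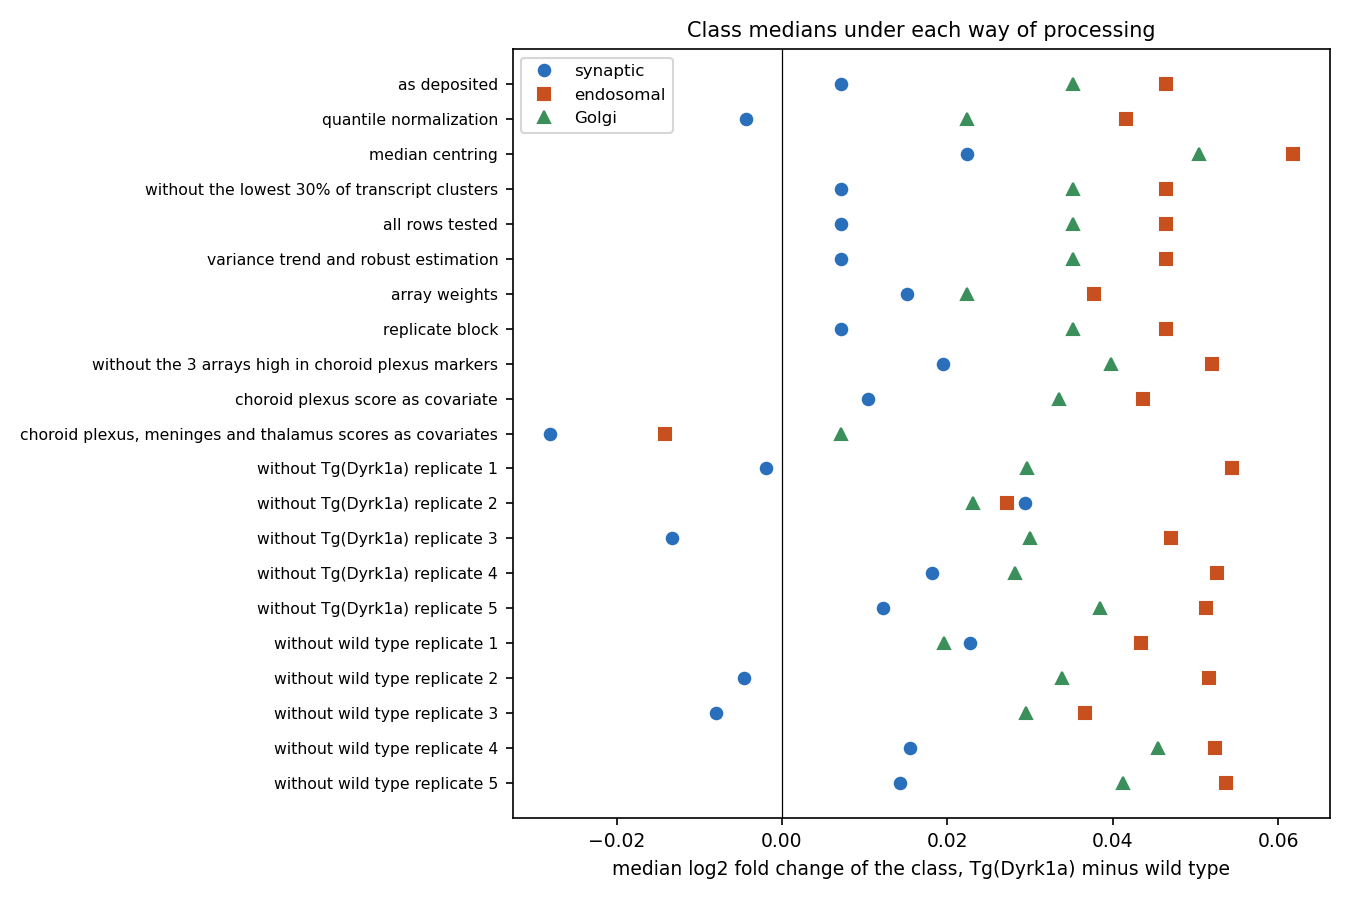
Median log2 fold change of the synaptic, endosomal and Golgi genes under each way of processing the values, 1 row per alternative. The endosomal median stays between 0.0272 and 0.0618 except with 3 marker scores as covariates, where it is -0.0141; the synaptic median lies on either side of 0.

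The proteins that work with SNAREs had no call either, and their counts stand beside 50.9% of all transcript clusters higher by direction and 2.99% higher at an unadjusted limma p under 0.05. Of 7 Sec1/Munc18 proteins, which hold syntaxins and guide bundle assembly, all 7 were higher, with a median log2 difference of 0.0792 and 2 at an unadjusted limma p under 0.05. These were Scfd1, the partner of Stx5a, at 0.079 ± 0.033 (SE, n = 5 each; adjusted p = 0.947, limma), and Stxbp3, the partner of Stx4a, at 0.12 ± 0.053 (adjusted p = 0.947, limma).

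Of 14 SNARE binding partners, 11 were higher with a median of 0.0255. Their smallest p values were those of Sncg, a synuclein, at 0.17 ± 0.057, and Snapin, a Snap25 binding protein, at 0.083 ± 0.033, both with an adjusted p of 0.947 (limma). Of 24 active zone and priming partners, 14 were higher with a median of 0.0116, and Rab3d, a vesicle GTPase, at 0.14 ± 0.044 and Rims3, an active zone scaffold, at -0.18 ± 0.072 pointed apart. Of 26 subunits of tethering complexes, which hold vesicles before SNAREs engage, 19 were higher with a median of 0.0249. Vps39, a tether of late endosomes, was at 0.092 ± 0.038 and Cog1, of the Golgi, at 0.063 ± 0.034. None of the partners passed the test, and their adjusted p was at least 0.947 (limma).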

How the data were processed

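Total RNA of the whole hippocampus was hybridised to whole-transcript arrays, 1 array per mouse, in 5 Tg(Dyrk1a) and 5 wild-type samples grouped by the labels. The authors deposited log2 values after RMA, which corrects background, normalizes arrays at the probe level and compresses fold changes, above all of dim genes. The submitters' processing notes name RMA, limma and the build mm10 with no versions. The set of arrays that RMA normalized as 1 batch is not given in the sources used here. With 5 arrays a group, the number of arrays limits the precision.

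Of 35556 rows, 23410 had a gene symbol and were tested in R 4.3.3 by lmFit and eBayes of limma 3.58.1 (no covariate, Benjamini-Hochberg adjustment over all of them), after the fit was tested on simulated data. Single genes also had a two-sided exact permutation test over the 252 assignments of mice, whose smallest p is 0.00794. Tables were handled in Python 3.11.15 (pandas 2.3.3, scipy 1.17.1). FCROS was rewritten from its description, with 25% of ranks trimmed at each end and an f-value beyond 0.025 at either end counted, and may differ from the published package. Transcript clusters with several symbols were tested but not named. Gene spans and promoters are those of RefSeq on GRCm38.p6, a patch release of mm10.

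Values by mouse are given for Dyrk1a, Snap25, Stx1a, Nsf and Snap23, for the 4 genes of smallest limma p in the synaptic, endosomal and Golgi classes and 2 in each other class; partners are the 2 of smallest p per list. Snap29, Stx6 and the other genes given by their fold change complete the list. The genes, classes, partner and marker lists were chosen with earlier results of these data known. Alternatives were quantile normalization, median centring, a filter on the lowest 30%, array weights, robust estimation with a variance trend, all rows, a replicate block, each array left out, the 3 arrays high in choroid plexus markers (score over 0.5) left out, that score or 3 marker scores as covariates, the mean of a gene's transcript clusters, and FCROS.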

Additional observations from a re-analysis of the deposited data

Results flagged for a closer look

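Of 50 groups of 5 mice examined for a mouse far from the others of its group, 1 was found, and chance alone gives about 1 in 20. The score of synaptic genes minus that of Golgi genes was lowest in Tg(Dyrk1a) mouse 2, at -0.140, with the next mouse of the group at -0.0179. The gap was 0.72 of the whole range of the group, above the critical value of 0.71 for 5 samples. That mouse had the highest score of choroid plexus markers, 1.17, whose part in the result was not tested.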

How the results depend on the processing

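No gene of the list was called by limma under any alternative, and FCROS alone gave 1, Vamp4. Replicate numbers do not pair the mice (correlations of same-numbered deviations from -0.285 to 0.276), and with them as a replicate block 0 of 45 genes were called, Vamp4 stayed at 0.13 and 44 intervals lay within 1.2-fold. On the 7 arrays low in choroid plexus markers, 4 of 45 genes had an unadjusted limma p under 0.05. The share of all transcript clusters under that p is not given for the alternatives, so such counts cannot be set against it. By direction, 51.2% of all transcript clusters were higher on those 7 arrays. There Snap25 was at 0.0082, Snap23 at -0.062, Stx5a at -0.0053 and Stx2 at -0.018. Snap25 was at 0.0021 under median centring, and Snap23 at -0.019 with array weights and -0.0020 with the choroid plexus score as a covariate. With 3 marker scores as covariates, 0 genes had an unadjusted p under 0.05, and 23 of 45 were higher, where 49.5% of all transcript clusters were. Of the 23, 6 were endosomal and 5 Golgi. The median was 0.0028 over the list and -0.014 over endosomal genes. In that fit Dyrk1a was at 0.44 and lost its call, and Snap23, Unc13b, Bet1 and Stx1a were at -0.041, -0.031, -0.071 and -0.21. The cause was not tested. Quantile normalization left 33 of 45 genes higher, where 50.4% of all transcript clusters were. Of the 33, 13 were endosomal, 6 Golgi and 4 synaptic.

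Leaving out each mouse in turn gave 0 to 3 genes at an unadjusted p under 0.05, 31 to 38 higher, 11 to 13 endosomal, 7 to 10 Golgi and 3 to 6 synaptic genes higher. Over all transcript clusters 48.2% to 54.2% were higher in these fits. Snap23 ranged from -0.046 to 0.066 and Stx2 from -0.0049 to 0.077. The synaptic median minus the endosomal one ranged from -0.060 to 0.0022, and minus the Golgi one from -0.043 to 0.0063. Of 671 recomputed values, 643 kept their direction and side of the threshold or moved by less than the spread. The 643 include changes of sign smaller than the spread, such as both class contrasts without Tg(Dyrk1a) mouse 2. The limma intervals give the differences that 5 arrays a group leave possible, not the smallest that the adjusted test could call.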
